A study of Mus musculus with 6 samples.

Results

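The genes described here are 10 genes of megakaryocytes and platelets, followed in sorted mouse bone marrow cells of Gfi1 knockout and wild-type mice. Megakaryocytes are the large marrow cells that shed platelets, the cell fragments that plug damaged vessels. The 10 genes are Itga2b, Pf4, Ppbp, Vwf, Gp5, Gp9, Cd9, Rap1b, Nfe2 and Fli1. They were chosen by name, and every probe set that the platform annotation ties to 1 of these symbols alone was taken, which gave 10 of the 12393 genes that the arrays name and 13 of their 22626 probe sets that are not controls. No probe set with several symbols held a member. Itga2b, Pf4, Ppbp, Vwf, Nfe2, Gp5, Gp9 and Cd9 had 1 probe set each, Fli1 had 2 and Rap1b had 3.

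The cells were LSK cells, a sorted marrow population without lineage markers and with Sca-1 and Kit on the surface, in which stem cells and early progenitors are enriched. There were 6 single-colour arrays, 3 labelled Gfi1 knockout and 3 labelled wild type, each group holding samples numbered 5, 7 and 8. The labels do not give the strain, age, sex or knockout allele, and they name no treatment beyond the sort. They do not say whether a sample came from 1 mouse or a pool, so p-values measure only the spread between these samples, which may be technical.

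Gfi1 is a transcriptional repressor of stem cells and of myeloid and lymphoid progenitors, and its relative Gfi1b, which binds the same DNA motif, is needed in the megakaryocyte and erythroid lineages. Megakaryocytes arise from stem cells by way of progenitors, and a share of stem cells already carries transcripts of the megakaryocyte programme such as Vwf, Itga2b and Pf4. In that programme Fli1, an ETS factor, and Nfe2, the large subunit of NF-E2, switch on genes of adhesion receptors, granule proteins and the machinery of platelet release.

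Upstream sequences are shown for 4 members that hold the same ETS-type motif, because Fli1 belongs to the ETS family. The lines below give the last 100 bases before the annotated gene start, 5′ to 3′ on the gene's own strand, from RefSeq on GRCm38.p6, with matches to GGAAGT or its other strand ACTTCC in capitals.
Itga2b (chr11:102469884-102469983, minus strand): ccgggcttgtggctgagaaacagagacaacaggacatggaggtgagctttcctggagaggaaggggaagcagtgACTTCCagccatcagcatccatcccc
Pf4 (chr5:90772335-90772434, plus strand): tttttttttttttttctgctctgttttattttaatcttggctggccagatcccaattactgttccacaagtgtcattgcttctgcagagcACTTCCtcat
Ppbp (chr5:90768418-90768517, plus strand): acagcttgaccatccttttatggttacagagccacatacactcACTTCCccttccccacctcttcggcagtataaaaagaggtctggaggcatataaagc
Gp5 (chr16:30310782-30310881, minus strand): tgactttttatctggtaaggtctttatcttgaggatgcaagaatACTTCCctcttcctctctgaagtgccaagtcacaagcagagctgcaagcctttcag

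The table of promoters held 7 of the 10 members, and Vwf, Nfe2 and Fli1 were not among them. In the 250 bases before the start, GGAAGT was present on either strand in 5 of these 7, against 19.7% of the 32851 promoters of the same length. The match nearest to the start ended 5 bases before it in Pf4, 21 in Itga2b, 51 in Gp5, 52 in Ppbp and 235 in Gp9. GGAA, the shorter core letters read by ETS factors, was present in each of the 7, against 93.45% of promoters. GATA, the core letters read by GATA factors, was present in 4 of the 7, against 53.6% of promoters. AATC, the core letters read by Gfi1 and Gfi1b, was present in 5 of the 7, against 69.0% of promoters. TGAGTCA, the core of the NF-E2 motif, was in 0 of the 7, against 4.46% of promoters. Both strands were searched for each motif, each motif on its own, so matches of different motifs may share bases. A match describes letters only.

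The values are the authors' deposited MAS5 signals, 1 per probe set and array on a linear scale. The brightest probe set for a Bacillus transcript on each array, a control, was taken as the floor of detection (100.2 to 161.6), and 67.0% to 74.4% of probe sets exceeded it. The sorted population was checked by those of its markers that had a probe set. Ly6a, which encodes Sca-1, had no probe set that the annotation ties to it alone, so Sca-1 was not checked. Cd34 had mean signals of 16025 on the knockout-labelled and 17248 on the wild-type arrays, and Kit, one of the sorting markers, of 4225 and 6899 (limma adjusted p = 0.0381). Of 9 lineage-gate genes 5 had a probe set, and Cd3e, Cd4, Cd8a and Itgam lay at group means of 67.2 to 143.6, about the level of the controls. The fifth, Ptprc (CD45, of which B cells carry the B220 form and other blood cells further forms), was bright, with means of 15202 ± 1037 on the knockout-labelled and 21261 ± 3367 on the wild-type arrays (SD, n = 3 each). All knockout-labelled arrays were below all wild-type arrays for Ptprc, a difference of -0.47 ± 0.15 (SE, limma adjusted p = 0.0956, or 0.0399 in the blocked fit). Gfi1 itself showed no loss of signal in the knockout-labelled group, with signals of 692.4, 1163 and 1737 for numbers 5, 7 and 8, against 632.0, 608.2 and 722.7 on the wild-type arrays. The difference was 0.76 ± 0.28 (SE) on the log2(signal + 16) scale, with a limma adjusted p of 0.148 (0.0354 to 0.466 over its alternatives, the lowest without knockout-labelled array 5). The labels do not place its probe set inside or outside the deletion, so the group is called knockout-labelled and every direction rests on the labels.

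No member passed the test between knockout-labelled and wild-type arrays. limma was fitted to log2(signal + 16) of the 13575 brightest probe sets, and 10 of the 13 member probe sets were bright enough to be among them. Of these 10, 0 had an adjusted p under 0.05, where 3.63% of all probe sets tested did, and 1 had an unadjusted p under 0.05, where 19.6% of all did. 6 lay above 0 and 4 below, with a median difference of 0.13 against -0.01 over all probe sets tested. The count of calls was also 0 with the sample number as a replicate block, where 5.89% of all passed, and with eBayes without trend. Over all 22626 probe sets, where 0.831% passed, 0 of the 13 did. In such bulk samples fewer cells of a type and less RNA per cell cannot be told apart.

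**Figure D1:**
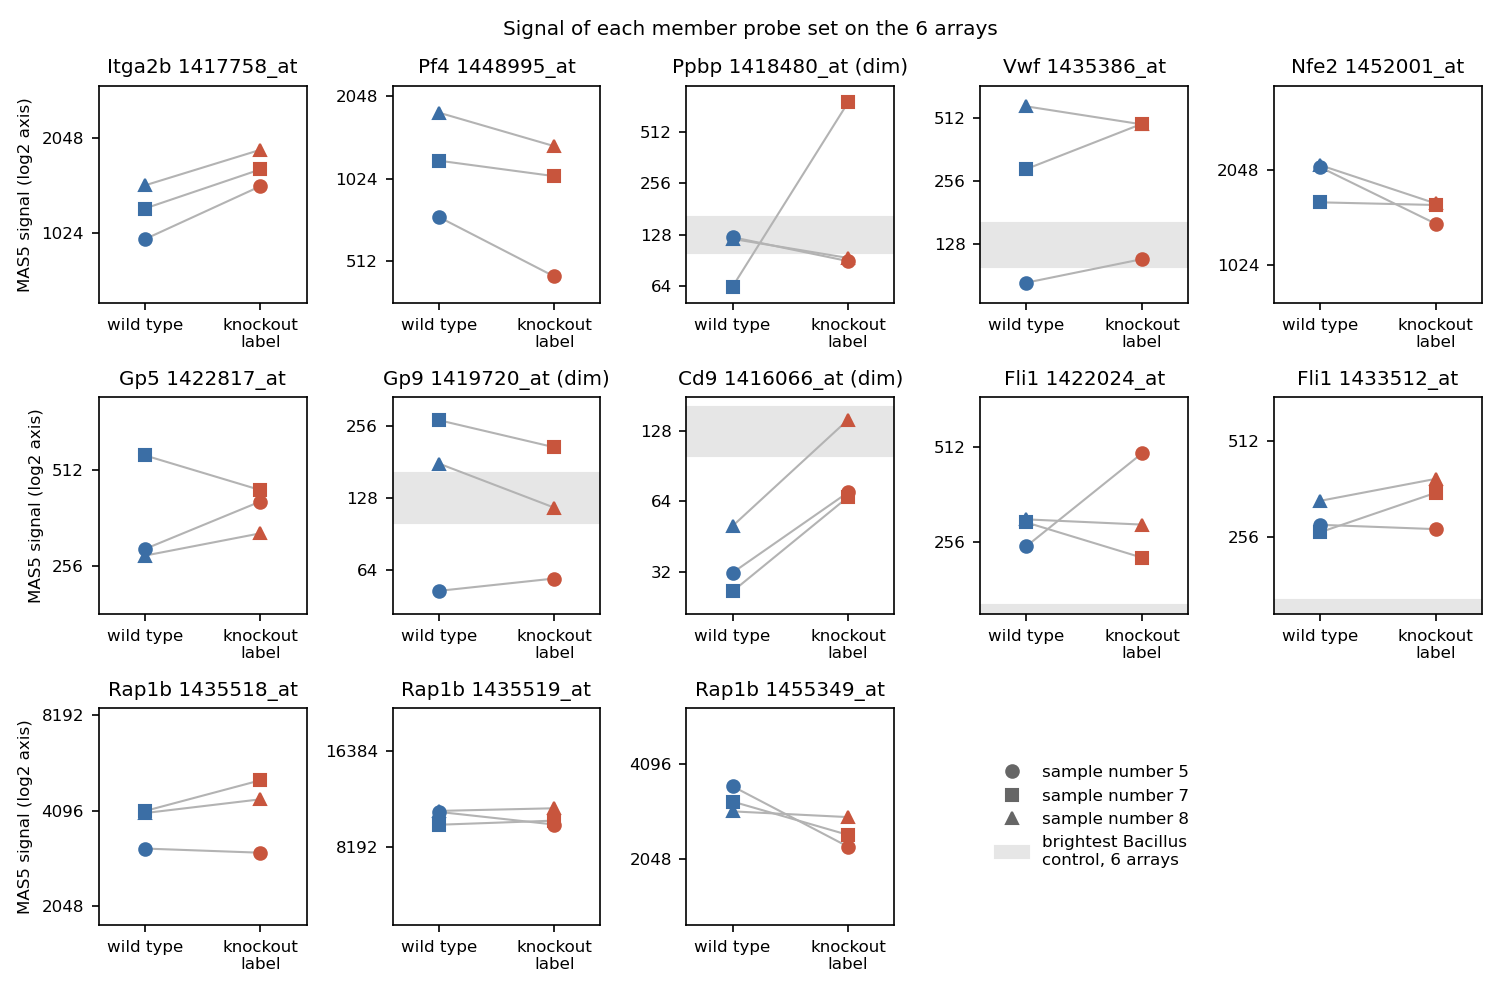
MAS5 signal (log2 axis) of each of the 13 member probe sets on the 3 wild-type and 3 knockout-labelled arrays, with grey lines joining samples of the same number and a grey band from the lowest to the highest Bacillus control level of the 6 arrays. Itga2b is higher at the knockout-labelled end of all 3 lines and Pf4 lower, without passing the test, while Vwf and Gp9 were spread more by sample number than by group.

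Itga2b encodes the integrin alpha-IIb chain (CD41), which with beta-3 forms the platelet fibrinogen receptor and is also carried by some early progenitors. Its signal was 1443, 1630 and 1880 on knockout-labelled arrays 5, 7 and 8, against 981.9, 1227 and 1452 on wild-type arrays 5, 7 and 8. Each knockout-labelled array lay above the wild-type array of the same number, but the groups overlapped because knockout-labelled array 5 lay below wild-type array 8. The means were 1651 ± 219.2 and 1220 ± 234.9 (SD, n = 3 each). The difference was 0.44 ± 0.20 (SE), with a 95% interval of 0.0059 to 0.88, and limma gave an unadjusted p of 0.0474 and an adjusted p of 0.247. The blocked fit gave an adjusted p of 0.146, so Itga2b did not pass in either. The step was 0.55, 0.41 and 0.37 on the log2 scale for the samples numbered 5, 7 and 8. Itga2b was the 1 of 10 tested member probe sets that was higher in all 3 pairs, as 21.8% of those tested were, and 3 of 10 were lower in all 3, as 22.8% were.

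Pf4 and Ppbp encode platelet factor 4 and pro-platelet basic protein, CXC chemokines stored in the alpha granules of platelets. The genes are neighbours on chromosome 5. Ppbp exceeded the control level on only 1 array of each group, so whether their signals follow each other cannot be judged. Pf4 had signals of 450.9, 1046 and 1345 on knockout-labelled arrays 5, 7 and 8, against 742.8, 1191 and 1783 on wild-type arrays 5, 7 and 8. In both groups the array numbered 5 was lowest and the array numbered 8 highest, and within each number the knockout-labelled array was the lower one. The means were 947.4 ± 455.3 and 1239 ± 521.7 (SD, n = 3 each), and the ranges overlapped widely. The difference was -0.43 ± 0.37 (SE), with a limma adjusted p of 0.574, or 0.201 in the blocked fit, where the SE was 0.19. Without knockout-labelled array 5 the unblocked difference was 0.03, a value that leaves wild-type array 5 without its partner. Within the samples numbered 5, 7 and 8 the step was -0.70, -0.18 and -0.40 on the log2 scale.

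Ppbp was dim on all arrays but 1. Its signal was 89.3, 767.0 and 93.2 on knockout-labelled arrays 5, 7 and 8, against 123.5, 63.3 and 120.7 on wild-type arrays 5, 7 and 8. Knockout-labelled array 7 stood far above the other arrays, which lay around or below the control level. Ppbp was too dim for the filtered test, and the fit over all probe sets gave a difference of 0.86 ± 0.70 (SE) with a limma adjusted p of 0.658. Leaving out knockout-labelled array 7 gave -0.10 (limma adjusted p = 0.969). Pf4 was not raised on that array, where its signal of 1046 was the middle value of its group.

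Vwf, Gp5 and Gp9 belong to one adhesion step. Von Willebrand factor, the product of Vwf, tethers platelets to exposed collagen by binding the GPIb-IX-V complex, of which Gp5 and Gp9 encode the GPV and GPIX subunits. Vwf had signals of 108.7, 478.2 and 475.3 on knockout-labelled arrays 5, 7 and 8, against 84.0, 291.6 and 578.8 on wild-type arrays 5, 7 and 8. Both arrays numbered 5 were at or below their control level, and the other 4 were well above theirs, so the spread ran by sample number and not by group. The means were 354.1 ± 212.5 and 318.2 ± 248.4 (SD, n = 3 each). The difference was 0.24 ± 0.60 (SE), with a 95% interval of -1.04 to 1.52 that covers 2-fold changes in both directions, and a limma adjusted p of 0.877. It turned to -0.09 without knockout-labelled array 7, -0.09 without knockout-labelled array 8 and -0.46 without wild-type array 5.

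Gp5 had signals of 407.5, 442.9 and 323.4 on knockout-labelled arrays 5, 7 and 8, against 288.5, 569.8 and 275.0 on wild-type arrays 5, 7 and 8. Wild-type array 7 was the highest of the 6 and the remaining wild-type arrays were the lowest, so all knockout-labelled values lay inside the wild-type range. The means were 391.3 ± 61.4 and 377.8 ± 166.5 (SD, n = 3 each), and the difference of 0.12 ± 0.30 (SE) had a limma adjusted p of 0.884. It became -0.03 without wild-type array 5, -0.06 without wild-type array 8 and 0.44 without wild-type array 7.

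Gp9 had signals of 58.7, 208.1 and 116.2 on knockout-labelled arrays 5, 7 and 8, against 52.1, 270.2 and 177.9 on wild-type arrays 5, 7 and 8. The order was the same in both groups, number 5 lowest and below the control level, number 7 highest. Gp9 was not bright enough for the filtered test, and over all probe sets its difference was -0.26 ± 0.58 (SE) with a limma adjusted p of 0.913. The difference was 0.14 without knockout-labelled array 5 and 0.18 without wild-type array 7.

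Cd9 encodes a tetraspanin of the platelet and megakaryocyte membrane that is also found on other marrow cells. Its signal was 70.0, 66.8 and 143.1 on knockout-labelled arrays 5, 7 and 8, against 31.7, 26.4 and 50.3 on wild-type arrays 5, 7 and 8. All 3 knockout-labelled arrays lay above all 3 wild-type arrays, but only knockout-labelled array 8 exceeded its control level. Because the wild-type group then has only a bound, and that bound lies above the knockout-labelled mean, no fold is given. In the fit over all probe sets limma gave an adjusted p of 0.267. Non-overlap itself, in either direction, was seen for 24.0% of the probe sets tested.

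Rap1b encodes a small GTPase that, once loaded with GTP, switches platelet integrins to their adhesive state, and which is expressed in most blood cells. Its 3 probe sets did not move alike. Probe set 1435519_at had 9623, 9901 and 10831 on knockout-labelled arrays 5, 7 and 8, against 10550, 9608 and 10625 on wild-type arrays 5, 7 and 8. These values varied little, and the difference of -0.02 ± 0.14 (SE) had a 95% interval of -0.31 to 0.27 (limma adjusted p = 0.958). Probe set 1435518_at had 3016, 5103 and 4445 on the knockout-labelled and 3108, 4082 and 4022 on the wild-type arrays 5, 7 and 8. Number 5 was the lowest in both groups, and the difference was 0.14 ± 0.21 (SE, limma adjusted p = 0.770). Probe set 1455349_at had 2247, 2447 and 2786 on the knockout-labelled and 3484, 3119 and 2904 on the wild-type arrays 5, 7 and 8.

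For 1455349_at all 3 knockout-labelled arrays lay below all 3 wild-type arrays, by -0.63, -0.35 and -0.06 on the log2 scale for numbers 5, 7 and 8. The means were 2493 ± 272.4 and 3169 ± 293.2 (SD, n = 3 each) and the difference was -0.35 ± 0.17 (SE), which did not pass (limma adjusted p = 0.282). Within each array, the log2 ratio of 1455349_at to 1435519_at was -2.09, -2.01 and -1.95 on the knockout-labelled and -1.59, -1.62 and -1.87 on the wild-type arrays. The ratio was thus lower on every knockout-labelled array, by 0.33 in the mean, with no test run on it. Against 1435518_at the ratios of the groups overlapped. The annotation ties all 3 probe sets to Rap1b without saying which transcript ends they cover.

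**Figure D2:**
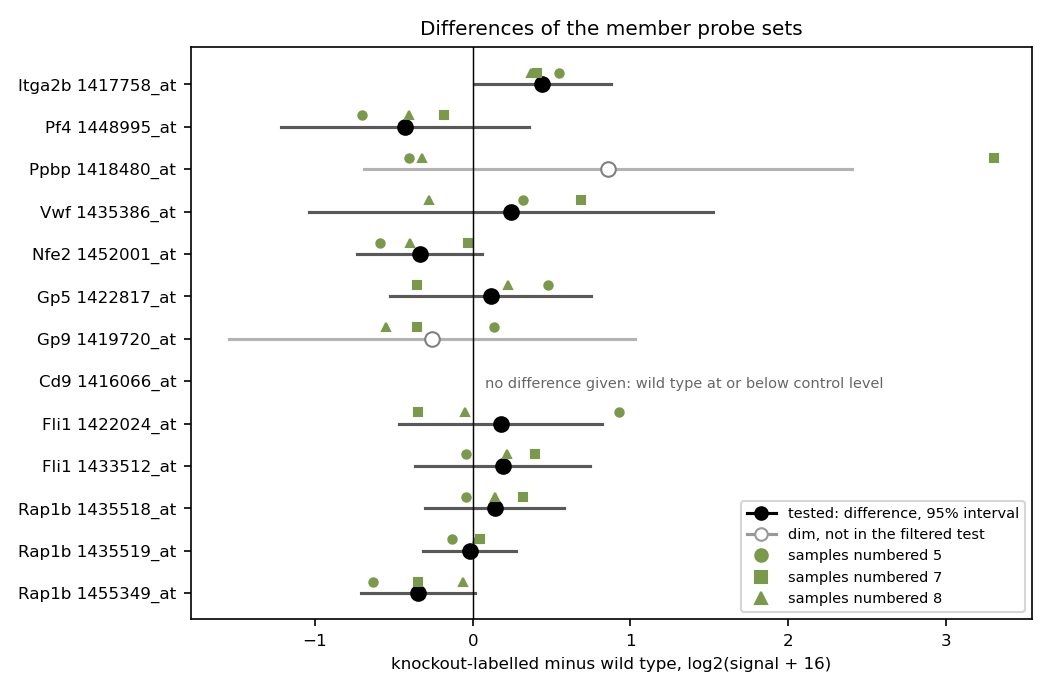
Differences of the member probe sets in log2(signal + 16), knockout-labelled minus wild type, as the limma estimate with its 95% interval (black, tested; open, dim and taken from the fit over all probe sets) and as the difference within each sample number (green). The intervals of 9 of the 10 tested probe sets include 0, that of Itga2b starts at 0.0059, and Ppbp shows 1 pair at 3.30 and the other two below 0.

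The transcription factors among the members were Nfe2 and Fli1. Nfe2, which is needed for platelet release, had signals of 1383, 1585 and 1602 on knockout-labelled arrays 5, 7 and 8, against 2084, 1616 and 2116 on wild-type arrays 5, 7 and 8. The groups did not overlap, though knockout-labelled array 8 and wild-type array 7 were separated by a narrow gap. The means were 1523 ± 122.2 and 1939 ± 280.1 (SD, n = 3 each), and the difference was -0.34 ± 0.18 (SE) with a 95% interval of -0.73 to 0.06. It did not pass (limma adjusted p = 0.344, or 0.285 in the blocked fit). Nfe2 and Rap1b probe set 1455349_at were the 2 of 10 tested member probe sets with all knockout-labelled arrays below all wild-type arrays, an order seen for 12.1% of the probe sets tested.

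Fli1 activates genes of megakaryocyte adhesion receptors and is also expressed in stem cells and endothelium. Its probe set 1422024_at had 487.4, 228.5 and 290.5 on knockout-labelled arrays 5, 7 and 8, against 248.3, 295.0 and 301.7 on wild-type arrays 5, 7 and 8. Probe set 1433512_at had 270.3, 352.1 and 389.6 on the knockout-labelled and 279.0, 264.4 and 332.2 on the wild-type arrays. The probe sets disagreed most on knockout-labelled array 5, which was the highest array for the first and the second lowest for the other. The differences were 0.18 ± 0.30 and 0.19 ± 0.26 (SE), with limma adjusted p of 0.807 and 0.752. Without knockout-labelled array 5 the first turned to -0.12.

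Sample number accounted for more of the spread than the group label in 7 of the 10 tested member probe sets, and in 58.5% of all probe sets tested. The number has 2 degrees of freedom and the group label 1, so the number takes the larger share more often even where neither has an effect, and the count of 7 is not a result about the members. This comparison was chosen after the values were seen, and the labels do not say what a number stands for. Of the sum of squares of log2(signal + 16) over the 6 arrays, the number took 94.7% for Vwf, 85.4% for Pf4, 85.5% for Rap1b 1435518_at and 73.7% for Gp5, and the group label 1.4%, 11.7%, 6.8% and 2.6%. Gp9, outside the filtered test, had 93.9% and 2.7%. The group label took the larger share for Itga2b (56.2% against 42.1%), Nfe2 (58.4% against 13.9%) and Rap1b 1455349_at (68.4% against 0.7%).

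Over all probe sets tested, the median share was 36.4% for the number and 24.0% for the group. A share as high as that of Vwf was reached by 1.38% of the probe sets tested. Between the sample number with the lowest mean and that with the highest, mean log2 values spanned 2.28 for Vwf, 1.83 for Gp9 and 1.39 for Pf4. In the limma fit with both terms, the number had an adjusted p of 0.0777 for Vwf and 0.150 for Pf4. At an unadjusted p under 0.05 the number reached 3 of the 10 tested member probe sets (Vwf, Pf4 and Rap1b 1435518_at), against 10.3% of all tested. None passed after adjustment, which 0.0368% of all probe sets tested did.

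**Figure D3:**
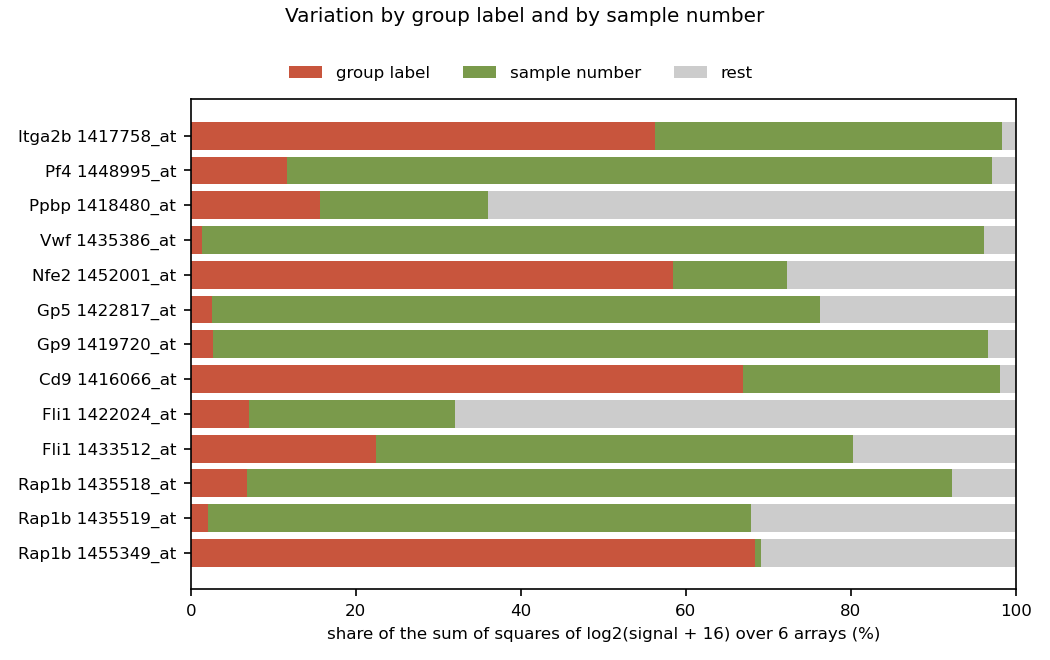
Share of the sum of squares of log2(signal + 16) over the 6 arrays (horizontal axis, %) taken by the group label (red), the sample number (green) and the rest (grey) for each member probe set. Green fills 94.7% for Vwf and 93.9% for Gp9, and red is the longest part for Itga2b, Nfe2, Cd9 and Rap1b 1455349_at.

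Genes around the members in the megakaryocyte programme were followed in 6 lists of 92 genes, of which 83 had a probe set and 72 were bright enough for the test, each taken by its brightest probe set. Of these 72 genes 2 rose (2.78%) and 4 fell (5.56%), where 1.44% and 2.19% of all probe sets tested rose and fell. The lists were chosen with earlier results of these data known, and the shares over all count every tested probe set of a gene. The shares are therefore no test of the programme as a whole. The median difference was -0.06 against -0.01 over all. By list, 3 of 18 transcription regulators fell and 0 rose, 1 of 12 receptors fell and 0 rose, and 2 of 12 granule and secreted genes rose and 0 fell. Among 12 genes of integrin activation, 9 of the cytoskeleton and 9 tetraspanins, 0 passed in limma, with 2, 4 and 1 at an unadjusted p under 0.05. Of all probe sets tested 19.6% reached that unadjusted p. The list medians ran from -0.20 for the regulators to 0.16 for the receptors.

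Selp, which encodes P-selectin, an adhesion receptor of platelet alpha granules and of endothelium, rose. Its signal was 3089, 2396 and 3000 on knockout-labelled arrays 5, 7 and 8, against 482.8, 852.0 and 1171 on wild-type arrays 5, 7 and 8. Every knockout-labelled array was more than 2 times as bright as every wild-type array. The difference was 1.82 ± 0.27 (SE, limma adjusted p = 0.00266), and its second probe set stood at 1.47 ± 0.30 (adjusted p = 0.0193). Selp passed in all 15 alternatives (adjusted p 0.000651 to 0.0256). Vwf and Pf4, whose products are stored in the same granules, differed by 0.24 ± 0.60 and -0.43 ± 0.37 (SE) and did not pass.

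Tgfb1, a growth factor that platelets store and that many blood cells make, had 359.0, 376.6 and 341.4 on knockout-labelled arrays 5, 7 and 8, against 79.7, 225.7 and 121.4 on wild-type arrays 5, 7 and 8. It rose by 1.35 ± 0.34 (SE, limma adjusted p = 0.0458), with wild-type array 5 below its control level. Its call was lost in 8 of 15 alternatives, among them the runs without knockout-labelled array 5, 7 or 8 and without wild-type array 5 or 8 (adjusted p up to 0.134).

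Among the regulators Ets1, Mef2c and Maff fell. Ets1, an ETS factor like Fli1, had 265.4, 335.2 and 348.6 on knockout-labelled arrays 5, 7 and 8, against 808.8, 736.2 and 677.0 on wild-type arrays 5, 7 and 8, a difference of -1.19 ± 0.22 (SE, limma adjusted p = 0.0120). Its call was lost without wild-type array 7 (0.0553). Mef2c, a factor of megakaryocytes and of lymphoid and myeloid cells, had 2502, 3083 and 2832 on the knockout-labelled and 7620, 7969 and 3965 on the wild-type arrays, a difference of -1.15 ± 0.23 (adjusted p = 0.0177).

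Maff, a small Maf protein of the kind that pairs with Nfe2, had 75.5, 283.3 and 127.4 on the knockout-labelled and 489.4, 783.1 and 334.2 on the wild-type arrays, a difference of -1.72 ± 0.41 (limma adjusted p = 0.0359). Knockout-labelled array 5 was below its control level for Maff, and without it the difference was -1.33. Both groups stayed apart for each of the 3 genes. The call of Mef2c was lost in 6 of 15 alternatives (adjusted p up to 0.0896) and that of Maff in 7 (up to 0.197). For both these were the runs without knockout-labelled array 5 or 8, without wild-type array 5 or 7, without the brightness filter (limma adjusted p = 0.0648 and 0.120) and with eBayes without trend (0.0699 and 0.0765), and for Maff also quantile normalization (0.0508). Mafg, the small Maf most tied to Nfe2 in platelets, stood at -0.09 ± 0.22 (0.874). The other probe sets of these genes stood between -1.15 and -0.12 for Ets1 and between -1.13 and -0.31 for Mef2c.

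The remaining regulators that define the lineage did not pass. Gata1 stood at 0.00 ± 0.23, Gata2 at 0.23 ± 0.17, Tal1 at -0.22 ± 0.22, Zfpm1, the GATA partner FOG-1, at 0.09 ± 0.27 and Gfi1b at 0.08 ± 0.35 (SE, limma adjusted p from 0.519 to 0.997). Runx1 stood at -0.46 ± 0.22 by its brightest probe set, with an adjusted p of 0.277. Its other tested probe sets stood between -0.46 and 0.10 and did not pass. Gfi1b had 637.9, 481.4 and 261.3 on knockout-labelled arrays 5, 7 and 8, against 528.8, 247.2 and 518.0 on wild-type arrays 5, 7 and 8, ranges that overlapped almost entirely.

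Of the receptors, Pear1, a platelet membrane protein that signals on contact, fell. It had 2035, 2319 and 2873 on knockout-labelled arrays 5, 7 and 8, against 3448, 5318 and 5036 on wild-type arrays 5, 7 and 8, a difference of -0.92 ± 0.20 (SE, limma adjusted p = 0.0248). The groups did not overlap, and its next brightest probe set stood at -0.42 ± 0.24 (0.374). The call was lost in 8 of 15 alternatives, among them every run without 1 array except that without wild-type array 5 (adjusted p up to 0.121), and with median centring (0.0684).

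Apart from Maff and Ets1, the partners and relatives of the members named here did not pass or were dim. Gp1bb, the beta chain of the complex that holds Gp5 and Gp9, stood at 0.01 ± 0.27 (SE, limma adjusted p = 0.994). Itgb3, the beta-3 partner of Itga2b, was at or below the control level on all 6 arrays (33.1 to 49.4), so no fold is given. Rap1a, the close relative of Rap1b, stood at 0.00 ± 0.15 (0.999) by its brightest probe set. Its other tested probe set stood at -0.50 ± 0.19 (SE, limma adjusted p = 0.172), with all knockout-labelled arrays below all wild-type arrays. Rasgrp2, the exchange factor that loads Rap1 in platelets, stood at 0.16 ± 0.21 (0.737). Gp1ba, Gp6, Tubb1 and Cd63 had no probe set that the annotation ties to them alone and were not analysed here. Fcer1g, the signalling chain of Gp6 and of several Fc receptors, was chosen after its values were seen. It was at least 3.09-fold higher on the knockout-labelled arrays, where it had 420.1, 417.2 and 393.4. Its wild-type values of 147.0, 32.9 and 43.8 did not exceed the control level (limma adjusted p = 0.0421 without the brightness filter). The receptors P2ry12 and Cd36, also named after their values were seen, went the other way. No knockout-labelled array exceeded the control level for them, and they were at least 1.39-fold and 1.30-fold lower there. Neither passed (limma adjusted p = 0.383 and 0.386 without the brightness filter).

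**Figure D4:**
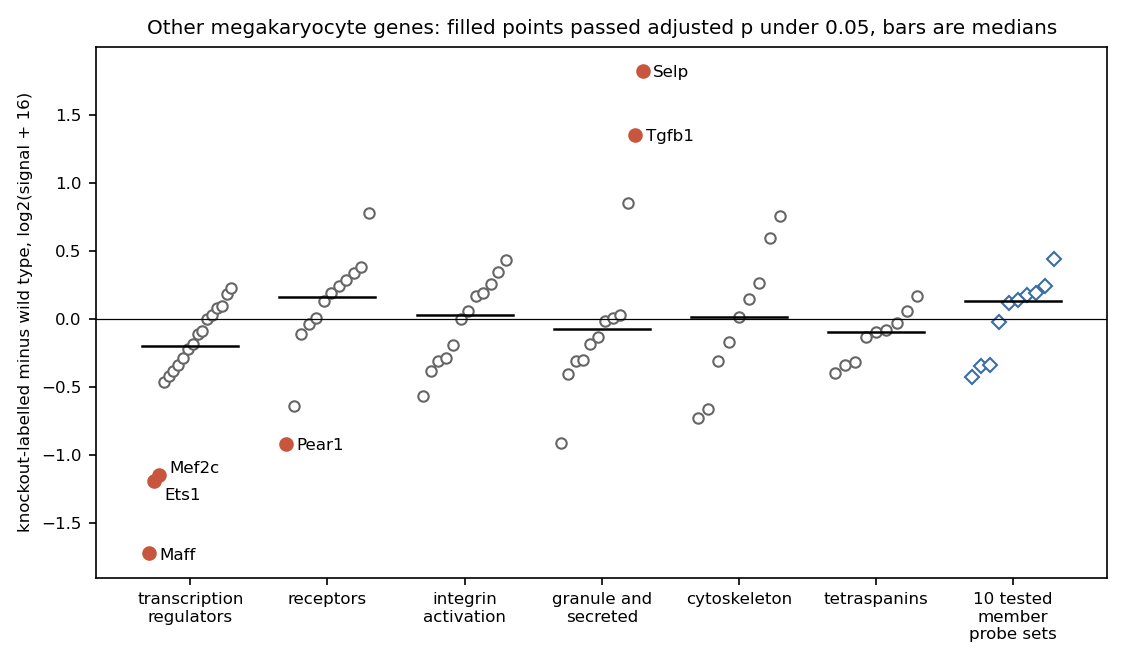
Difference between knockout-labelled and wild-type arrays (vertical axis, log2(signal + 16)) for the 72 tested genes of the 6 further lists, 1 point a gene, with medians as bars and, in blue, the 10 tested member probe sets. Selp and Tgfb1 stand above and Mef2c, Ets1, Maff and Pear1 below, while the member probe sets lie between -0.43 and 0.44.

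Markers of other blood cells moved in the same arrays, each gene by its brightest probe set, and their part in the values above was not tested. Over all probe sets tested, 1.44% rose and 2.19% fell in limma, and 19.6% had an unadjusted p under 0.05. In the blocked fit 5.89% passed in either direction. Markers of monocytes and macrophages rose in 4 of 9 tested cases and fell in 0, and their summed signal was 22913 to 25683 on the knockout-labelled and 17016 to 18269 on the wild-type arrays. Of 9 tested neutrophil markers 5 fell and 1 rose (7186 to 14688 against 20622 to 41816). Of 11 tested erythroid markers, the lineage nearest to megakaryocytes, 1 fell, Car2, and 0 rose (15271 to 15979 against 25390 to 40861), and the globin genes Hba-a1 and Hbb-b2 had group means of 46.1 to 176.4. A sum weighs the brightest genes most. Car2 alone had 4924, 3278 and 4471 on knockout-labelled arrays 5, 7 and 8, against 12713, 12329 and 17042 on the wild-type arrays. Ermap reached 10075 on wild-type array 8. Of 5 tested mast cell and basophil markers 1 rose (2 in the blocked fit) and 0 fell (8387 to 10976 against 5093 to 7540), and of 3 tested T and NK cell markers 1 fell and 0 rose (3293 to 3819 against 3143 to 3688). Among 6 tested B cell and 6 tested endothelial and stromal markers 0 passed in limma (1 each at an unadjusted p under 0.05, and 1 B cell marker lower in the blocked fit), with sums of 1924 to 2889 against 2408 to 3472 and of 2526 to 2826 against 2949 to 3593.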

How the data were processed

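RNA of sorted LSK cells was amplified in 2 rounds from 10 ng and hybridised to 1 single-colour array a sample, per the labels' protocols. The values are the authors' deposited intensity values, linear signals made by MAS5 per the submitters' processing notes, with no version or settings stated there. The arrays as deposited already shared a mean of about 1000.3 after trimming 2% at each end. No further normalization was applied.

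Of 22690 probe sets, 64 controls were left out, and log2(signal + 16) of the 60% brightest (13575) was fitted with limma 3.58.1 in R 4.3.3 (lmFit, eBayes with trend, two-sided, Benjamini-Hochberg over all tested, threshold 0.05). Differences are knockout-labelled minus wild type, and they understate changes of dim probe sets. Probe sets outside the filter were taken from the same fit over all 22626. The brightest of 27 Bacillus control probe sets on each array served as the detection level. A group with no array above it has only a bound, and "at least" compares the brighter group's mean with those levels. Named were all member probe sets, Gfi1, 17 further genes whatever their values (1 of them is not reported here), and up to 4 called genes a list. Members and lists were chosen with earlier results of these data known. All 10 members matched RefSeq (GRCm38.p6) by gene identifier. The script was tested on simulated data.

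Same-numbered samples deviated together from their group means (correlations of 0.159, 0.168 and 0.238, all over 0.1), against -0.134 to -0.0307 for other samples of different groups. Deviations within a group cancel out, so the negative values follow from the positive ones and add no separate evidence. The numbers were treated as a pairing in an alternative fit. Whether the samples were paired, and by what, is not given in the labels. The number of arrays limits the precision.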

Additional observations from a re-analysis of the deposited data

How the results depend on the processing

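No member probe set that was tested passed in any of the 15 alternatives run (pseudocounts of 1 and 64, 2 other filters, 3 normalizations, eBayes without trend, the sample number as a replicate block, and 6 runs without 1 array). Ppbp, Gp9 and Cd9 lay outside the brightness filter and so were not tested in most of these alternatives. Itga2b, Nfe2, Rap1b 1455349_at and Fli1 1433512_at kept their sign in all 15. The 2 other filters, eBayes without trend and the replicate block leave each difference unchanged, so only the remaining runs could have turned a sign. With 1 array left out the differences ran from -0.75 to 0.026 for Pf4, -0.46 to 0.90 for Vwf, -0.064 to 0.44 for Gp5, -0.12 to 0.40 for Fli1 1422024_at, -0.019 to 0.36 for Rap1b 1435518_at and -0.070 to 0.015 for Rap1b 1435519_at, which was 0.036 with median centring. The cause was not tested. Among the other megakaryocyte genes, 2 higher and 4 lower calls became 1 and 1 with eBayes without trend and 2 and 1 without the brightness filter, and ran from 1 to 2 and from 0 to 4 with 1 array left out. A fit with 5 arrays has less power. With the replicate block there were 2 higher and 5 lower, Plek at -0.73 being added (adjusted p = 0.107, blocked 0.0377), 2 neutrophil markers, 1 B cell marker and Ptprc of the lineage gate lower and 1 mast cell marker higher were added among the marker lists, and no other call named here changed. In the main fit without the block, the calls counted over every tested probe set were 3 higher and 6 lower. The median of all tested probe sets moved from -0.01 to 0.05 with median centring. Signals near the control level limit what can be said of Ppbp, Gp9, Cd9 and the arrays numbered 5 for Vwf. The same holds for knockout-labelled array 5 for Maff and wild-type array 5 for Tgfb1.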
